A study of Mus musculus with 21 samples.

Results

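The Zbtb genes encode transcription factors with a BTB domain near the N terminus and zinc fingers near the C terminus. The family was taken here as every protein-coding gene of the QuantSeq table whose symbol is Zbtb followed by a number and at most 1 letter, which gave 40 members of 55421 genes. *Zbtb8os*, whose symbol carries an additional suffix, and the noncoding *Zbtb11os1* were not members. The ChIP-seq peaks whose nearest gene, as named in the peak lists, was a member were added, 13 of them from Zbtb1 ChIP-seq and 3 from Cbfa2t3 ChIP-seq.

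The cells were *Ebf1*-deficient lymphoid progenitors (LPs), a C57BL6/J mouse line cultured on OP9 stromal cells with SCF, IL-7 and Flt3L. All QuantSeq cells carried Cas9-GFP and an sgRNA vector with human NGFR, and were sorted for both 5 days after sgRNA transduction. The sgRNAs were directed against luciferase (sgControl, labelled sgCont), *Lmo2*, *Zbtb1*, *Cbfa2t2* or *Cbfa2t3*, with a pool of 2 sgRNAs per gene. Each of these 5 conditions had 3 biological replicates, so 15 libraries were compared. The ChIP-seq cells carried no sgRNA. Neither the QuantSeq cells nor the ChIP-seq cells were stimulated through Notch. Each condition was thus a pool of sgRNA-transduced cells of a single line, not a clone with a known allele. In such bulk libraries, fewer cells of a type and less RNA per cell cannot be told apart.

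BTB-zinc finger proteins bind DNA through the zinc fingers, pair with each other through the BTB domain and recruit corepressors. Many set cell fates in the blood. Zbtb1 is required for lymphocyte development, Zbtb7b (ThPOK) directs CD4 T cells, Zbtb16 (PLZF) marks innate-like T cells, and Zbtb7a (LRF) acts in erythroid cells and in the choice between B and T lymphocytes.

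The libraries held 1705416 to 2095447 reads, and 3 reads, taken as the smallest measurable amount, were worth 1.43 to 1.76 TPM. This floor covers counting error only, whereas the standard errors and intervals of the differences come from the spread between libraries. Of the 6 LP markers (*Ptprc*, *Kit*, *Flt3*, *Il7r*, *Cd34* and *Ly6d*), all had a mean above 1 TPM, and they summed to 1247 to 1393 TPM in sgControl and 1067 to 1439 TPM over all libraries. The sums in sgZbtb1 (1100 to 1213 TPM) and sgCbfa2t3 (1067 to 1241 TPM) lay below sgControl without overlap. None of the 6 OP9 stroma markers had a mean above 1 TPM. Of the B lineage list of 5 genes, 2 had a mean above 1 TPM, among them *Pax5* with a median of 3.82 TPM, while *Cd79a* was at 0 in all libraries. The list summed to 5.79 to 9.38 TPM in sgControl, 2.14 to 4.00 TPM in sgCbfa2t3, 4.26 to 6.76 TPM in sgCbfa2t2, 9.31 to 19.1 TPM in sgLmo2 and 0.56 to 7.36 TPM in sgZbtb1. Of the 5 myeloid genes, 2 had a mean above 1 TPM, among them *Itgam* with a median of 9.84 TPM, while *Elane* was at 0. They summed to 15.1 to 17.0 TPM in sgControl, 17.7 to 21.4 TPM in sgCbfa2t3, 11.1 to 30.3 TPM in sgCbfa2t2, 3.83 to 11.3 TPM in sgLmo2 and 8.61 to 22.9 TPM in sgZbtb1. Of the 3 erythroid genes, *Hbb-bt* had a mean above 1 TPM and *Hba-a1* was at 0. The summed erythroid markers were 114 to 148 TPM in sgControl, 184 to 277 TPM in sgCbfa2t3, 153 to 181 TPM in sgCbfa2t2, 71.2 to 113 TPM in sgLmo2 and 112 to 168 TPM in sgZbtb1, the last being the condition that overlapped sgControl. *Zbtb1* mRNA was higher, not lower, in the libraries labelled sgZbtb1, as described further on. A label names the sgRNA given and not an mRNA level, so each condition is named by its label and not by the state of its target. An mRNA level does not show whether the targeted protein was lost, and protein was not analysed here.

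Sequences of 5 sites are printed, because each carries a point of the results on the family's own loci. They are given 5′ to 3′ on the plus strand of GRCm38 (mm10), in lower case with capitals marking the searched motifs on either strand. The Runx core was searched as TGTGGT and the GATA motif as GATAAG. The E box was searched in the form CAGCTG and in another form, CAGATG. The triplet repeat was searched as TGGTGGTGG. The first site is the centre of the highest-scoring member peak of the Zbtb1 list, at *Zbtb1* itself (chr12:76370466-76370495), and none of the motifs was in it. The second is the Zbtb1 peak in an intron of *Zbtb20*, the member that fell in sgZbtb1 (chr16:43190475-43190674). The third is the Zbtb1 peak upstream of *Zbtb21*, a gene with peaks on both sides of its start (chr16:97964239-97964438). The fourth is the stretch of a *Zbtb16* intron covered by peaks of both lists (chr9:48814549-48814808). The fifth is the strongest Cbfa2t3 peak near a member, upstream of *Zbtb10* (chr3:9198740-9198939).
Zbtb1 peak centre: gccgccgcgaactggtgggcagacccggag
Zbtb20 intron: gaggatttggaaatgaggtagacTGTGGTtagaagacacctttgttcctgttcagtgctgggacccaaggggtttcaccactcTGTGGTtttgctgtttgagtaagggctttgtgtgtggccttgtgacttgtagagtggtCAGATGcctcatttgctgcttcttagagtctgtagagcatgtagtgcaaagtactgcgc
Zbtb21 upstream: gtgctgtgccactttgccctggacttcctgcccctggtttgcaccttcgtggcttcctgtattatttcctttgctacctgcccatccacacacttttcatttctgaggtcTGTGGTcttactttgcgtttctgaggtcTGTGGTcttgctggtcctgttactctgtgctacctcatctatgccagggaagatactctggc
Zbtb16 intron: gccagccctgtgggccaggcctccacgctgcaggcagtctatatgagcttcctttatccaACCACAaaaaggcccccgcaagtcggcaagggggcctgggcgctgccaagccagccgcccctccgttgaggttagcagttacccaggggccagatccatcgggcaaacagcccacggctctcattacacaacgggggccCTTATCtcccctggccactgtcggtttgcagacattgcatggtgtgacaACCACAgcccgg
Zbtb10 upstream: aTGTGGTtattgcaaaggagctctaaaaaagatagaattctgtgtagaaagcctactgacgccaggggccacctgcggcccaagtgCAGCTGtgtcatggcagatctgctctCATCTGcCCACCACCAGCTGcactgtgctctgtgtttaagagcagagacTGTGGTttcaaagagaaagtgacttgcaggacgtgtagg

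The level of each member was first read over all 15 libraries, to see which of the family these progenitors expressed. QuantSeq reads come from the 3′ end of each mRNA and are not divided by gene length, so length does not enter a comparison of TPM between genes. Other influences on the count of a gene, such as reads of overlapping genes, were not checked. Of the 40 members, 34 had a mean above 1 TPM, 24 a mean above 10 TPM, 5 above 50 TPM and 2 above 100 TPM. The median over the 34 was 18.7 TPM, against 31.4 TPM over the 10167 protein-coding genes that passed the same filter. *Zbtb7a* was the highest at 185 TPM and ranged from 150 to 214 TPM between libraries. It was followed by *Zbtb44* at 100.2 TPM, *Zbtb1* at 70.9 TPM, *Zbtb11* at 60.6 TPM, *Zbtb38* at 51.9 TPM and *Zbtb20* at 44.5 TPM. This order is of means over all 15 libraries, those labelled sgZbtb1 included. In sgControl alone the means after *Zbtb44* were 66.9 TPM for *Zbtb11*, 61.7 TPM for *Zbtb1*, 60.7 TPM for *Zbtb20* and 52.6 TPM for *Zbtb38*. The 3 highest members made up 36.9% of the family's summed TPM and the 10 highest 66.8%. The libraries of *Zbtb7a* lay above those of *Zbtb44*, 85.7 to 116 TPM, without overlap, whereas those of *Zbtb1*, *Zbtb11* and *Zbtb38* overlapped their neighbours in this order.

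**Figure D1:**
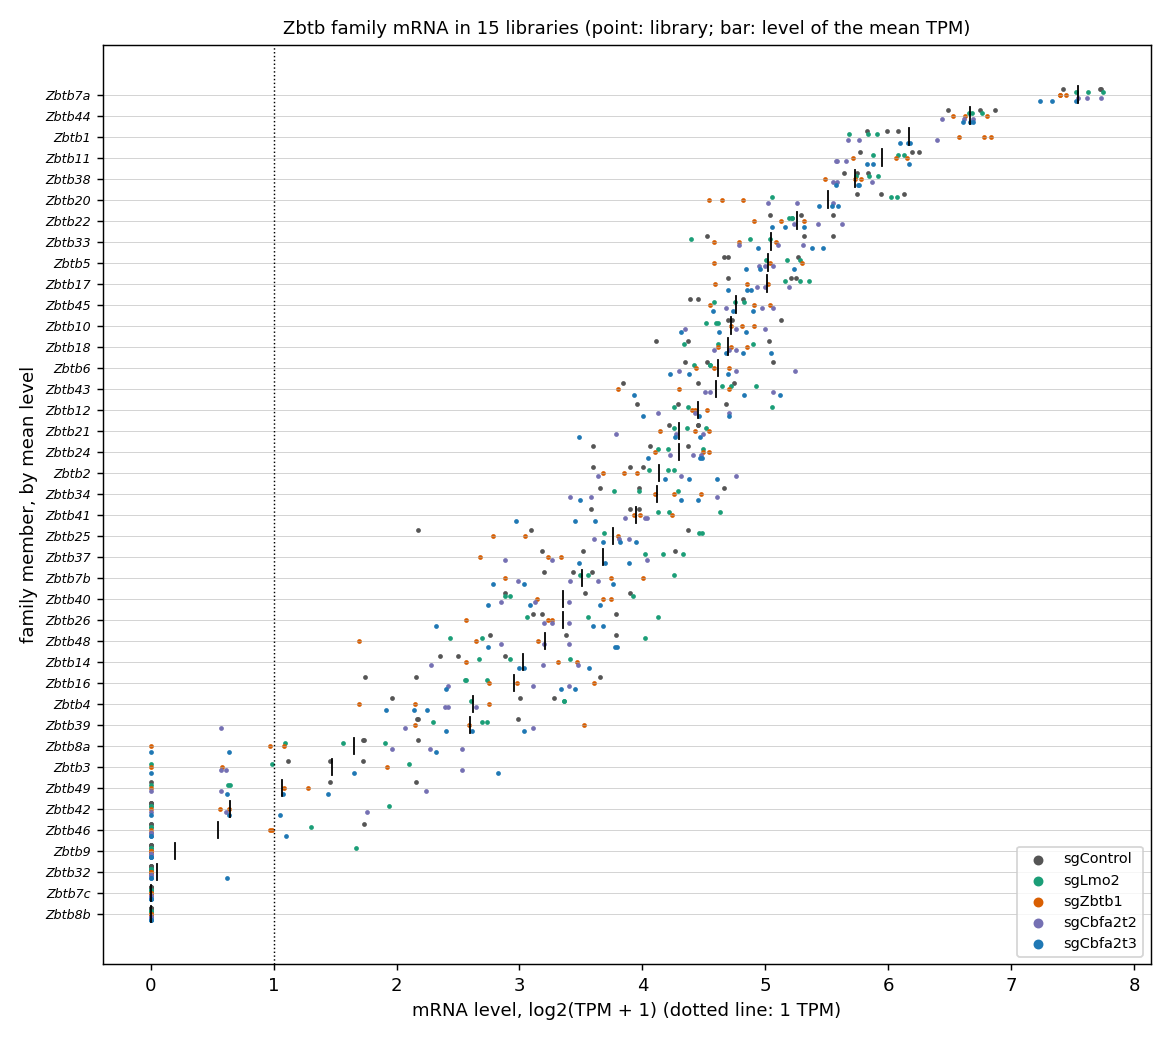
mRNA level of the 40 Zbtb members (rows, ordered by mean) in the 15 libraries, on the horizontal axis as log2(TPM + 1). Points are libraries coloured by sgRNA, bars are the level of the mean TPM and the dotted line is 1 TPM; *Zbtb7a* stands above all other members, and 6 members have a mean below 1 TPM.

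The other 6 members were at or near 0. *Zbtb7c* and *Zbtb8b* had no read in any library. *Zbtb32*, a gene of activated lymphocytes and plasma cells, had 1 read over the 15 libraries, and *Zbtb9* had 4 reads, all in 1 sgLmo2 library. *Zbtb46*, a marker of conventional dendritic cells, had 13 reads in all and was at 0 in 10 libraries. *Zbtb42*, known from muscle, had 16 reads. These members were not tested, and their expression was not detectable at this depth rather than shown to be absent. A further 4 members that were tested, *Zbtb39*, *Zbtb8a*, *Zbtb3* and *Zbtb49*, did not exceed 3 reads in every library, which left 30 that did.

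The summed TPM of the family was 984 ± 57.9 in sgControl and 943 ± 32.6 in sgZbtb1 (SD, n = 3 each). It was 1008 ± 37.4 in sgLmo2, and 941 ± 51.0 and 955 ± 21.1 in the Cbfa2t3 and Cbfa2t2 conditions (SD, n = 3 each). The libraries of each condition overlapped those of sgControl in this sum.

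*Zbtb1* itself was the first question, since its sgRNA should act on this gene. *Zbtb1* (ENSMUSG00000033454; chr12:76370266-76396950, plus strand) was at 62.7, 66.6 and 55.7 TPM in sgControl. In the libraries labelled sgZbtb1 it was at 94.4, 113 and 109 TPM. Thus all 3 sgZbtb1 libraries were above every other library, and *Zbtb1* mRNA was 1.71-fold higher than in sgControl. The means were 105.6 ± 9.91 and 61.7 ± 5.51 TPM (SD, n = 3 each), and the log2 fold change, here and below a difference in log2(TPM + 1), amounted to 0.77 with a standard error of 0.16 (limma adjusted p = 0.00102). The exact two-sided permutation test gave p = 0.1, the smallest that 3 libraries against 3 allow. These reads lie near the 3′ end and do not measure protein or the edited sequence.

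The other conditions placed *Zbtb1* near sgControl. It was at 50.3, 56.2 and 59.2 TPM in sgLmo2 and at 67.6, 71.4 and 70.4 TPM in sgCbfa2t3. In sgCbfa2t2 it was at 53.2, 50.1 and 83.1 TPM, so that 1 library was above the others of that condition. Its 3 sgCbfa2t3 libraries were above all sgControl libraries, but the log2 fold change of 0.18 did not pass the test (95% interval -0.14 to 0.50, limma adjusted p = 0.752). The corresponding values were -0.16 (-0.48 to 0.17) in sgLmo2 and -0.02 (-0.34 to 0.30) in sgCbfa2t2.

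*Zbtb20* (ENSMUSG00000022708; chr16:42875881-43642602, plus strand) encodes a factor known from plasma cells and from repression of alpha-fetoprotein in the liver. It was at 69.1, 52.7 and 60.4 TPM in sgControl. In the libraries labelled sgZbtb1 it was at 22.3, 27.3 and 24.1 TPM, below each of the other 12 libraries. The mean fell from 60.7 ± 8.22 to 24.6 ± 2.49 TPM (SD, n = 3 each), to 0.404 of sgControl. This gave a log2 fold change of -1.27 with a standard error of 0.21 (limma adjusted p = 1.39e-05). The exact permutation test again gave its smallest value, p = 0.1. *Zbtb20* lies over several other annotated transcripts on both strands, and whether the authors counted by strand is not given in the sources used here.

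*Zbtb20* was between those levels in the libraries labelled sgCbfa2t2 and sgCbfa2t3. It was at 45.8, 31.5 and 37.2 TPM in sgCbfa2t2 and at 45.6, 42.3 and 47.1 TPM in sgCbfa2t3. Neither condition overlapped sgControl, but the log2 fold changes of -0.66 (95% interval -1.08 to -0.25, limma adjusted p = 0.212) and -0.42 (-0.83 to -0.00, limma adjusted p = 0.465) missed the adjusted threshold. In sgLmo2 the libraries were at 32.2, 64.0 and 66.3 TPM, so that 1 was low and the others were within sgControl. Against the 9 other gene-targeting libraries, which include sgZbtb1, these values were -0.03 in sgCbfa2t2 and 0.30 in sgCbfa2t3. The plot of 6 members by library shows the levels.

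**Figure D2:**
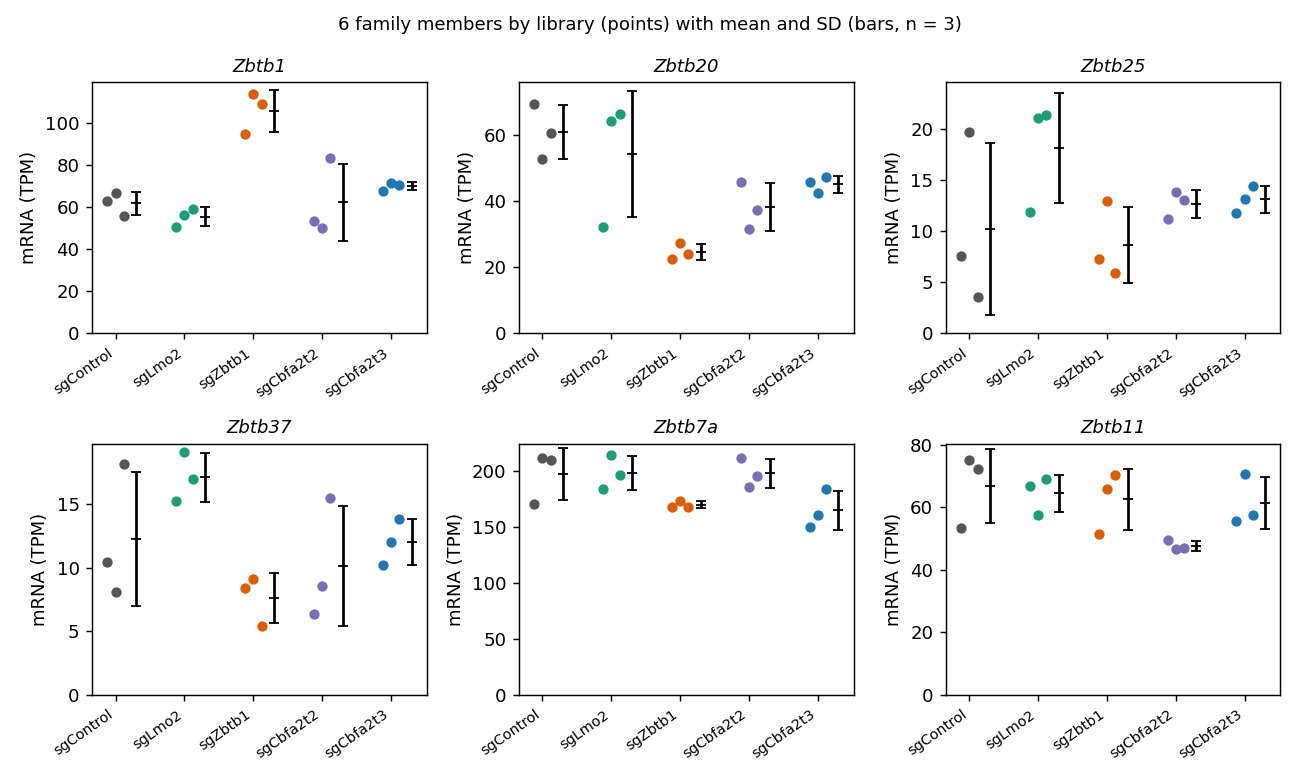
mRNA (TPM, axes from 0) of *Zbtb1*, *Zbtb20*, *Zbtb25*, *Zbtb37*, *Zbtb7a* and *Zbtb11* in each library (points, by sgRNA), with the mean and SD of 3 libraries beside them. The sgZbtb1 libraries are the highest for *Zbtb1*, at 94.4 to 113 TPM, and the lowest for *Zbtb20*, at 22.3 to 27.3 TPM.

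Among the 34 members tested in sgZbtb1 against sgControl, *Zbtb1* was thus the 1 that rose with a limma adjusted p under 0.05, as did 1.85% of all 11554 genes. *Zbtb20* was the 1 that fell, as did 2.94% of genes, and 4.79% passed in either direction. The same 2 members passed with edgeR and DESeq2 on the recovered reads. *Zbtb20* also met the DEG rule (unadjusted p under 0.05, a log2 fold change beyond 1 either way, and at least 1 condition with a mean over 10 TPM), which 1.66% of genes met. Without sgControl replicate 2 the rule was met by 2 members, *Zbtb20* and *Zbtb48*. The libraries of 3 members (8.82%) did not overlap sgControl, against 22.9% of all genes, and 3 members had an unadjusted p under 0.05, against 17.6%. Beside *Zbtb1* and *Zbtb20* this was *Zbtb8a*, at 0.691 ± 0.604 TPM in sgZbtb1 and 2.72 ± 0.693 TPM in sgControl (SD, n = 3 each), with 4 and 14 reads in all (limma adjusted p = 0.268). The median log2 fold change was -0.04 over the members and -0.03 over all genes tested. Of the T lineage list of 5 genes, 1, *Lck*, had a mean above 1 TPM, and the list summed to 39.8 to 56.4 TPM in sgZbtb1, 60.4 to 72.9 TPM in sgCbfa2t3 and 75.5 to 92.1 TPM in sgControl, with no overlap of either condition with sgControl, while *Cd3e*, *Cd3g* and *Cd3d* had a median of 0 TPM. The summed LP markers were also lower in sgZbtb1, as given above. The part of these differences in the results on the family was not tested.

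No member passed the adjusted threshold of limma in the other 3 conditions against sgControl, nor with edgeR or DESeq2. In sgCbfa2t3, where 0.537% of all genes passed, 2 members had an unadjusted p under 0.05, *Zbtb20* and *Zbtb7a*, against 10.6% of genes. In sgCbfa2t3 the summed T lineage, B lineage and LP markers lay below sgControl and the summed erythroid and myeloid markers above it, without overlap. In sgLmo2 the summed myeloid and erythroid markers lay below sgControl, and in sgCbfa2t2 the summed erythroid markers lay above it, also without overlap. The part of these differences in the results was not tested. In sgCbfa2t2, where 0.147% of genes passed, these were 2 members, *Zbtb20* and *Zbtb11*, against 9.56%. In sgLmo2, where 0.0173% passed, it was 1, *Zbtb25*, against 5.65%. The libraries of 4, 2 and 3 members, in this order of conditions, did not overlap sgControl, against 15.8%, 13.7% and 10.6% of all genes. No member met the DEG rule in these conditions, which 0.658%, 0.502% and 0.234% of genes met. Without sgControl replicate 2, 1 member, *Zbtb25*, met it in each of them. The standard error of a member's log2 fold change was 0.11 to 0.66, and the 95% interval lay within 1 of 0 for 22 members in sgZbtb1, sgCbfa2t3 and sgCbfa2t2 and for 21 in sgLmo2. For the rest a difference of that size was not detectable, or not excluded, with these libraries.

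**Figure D3:**
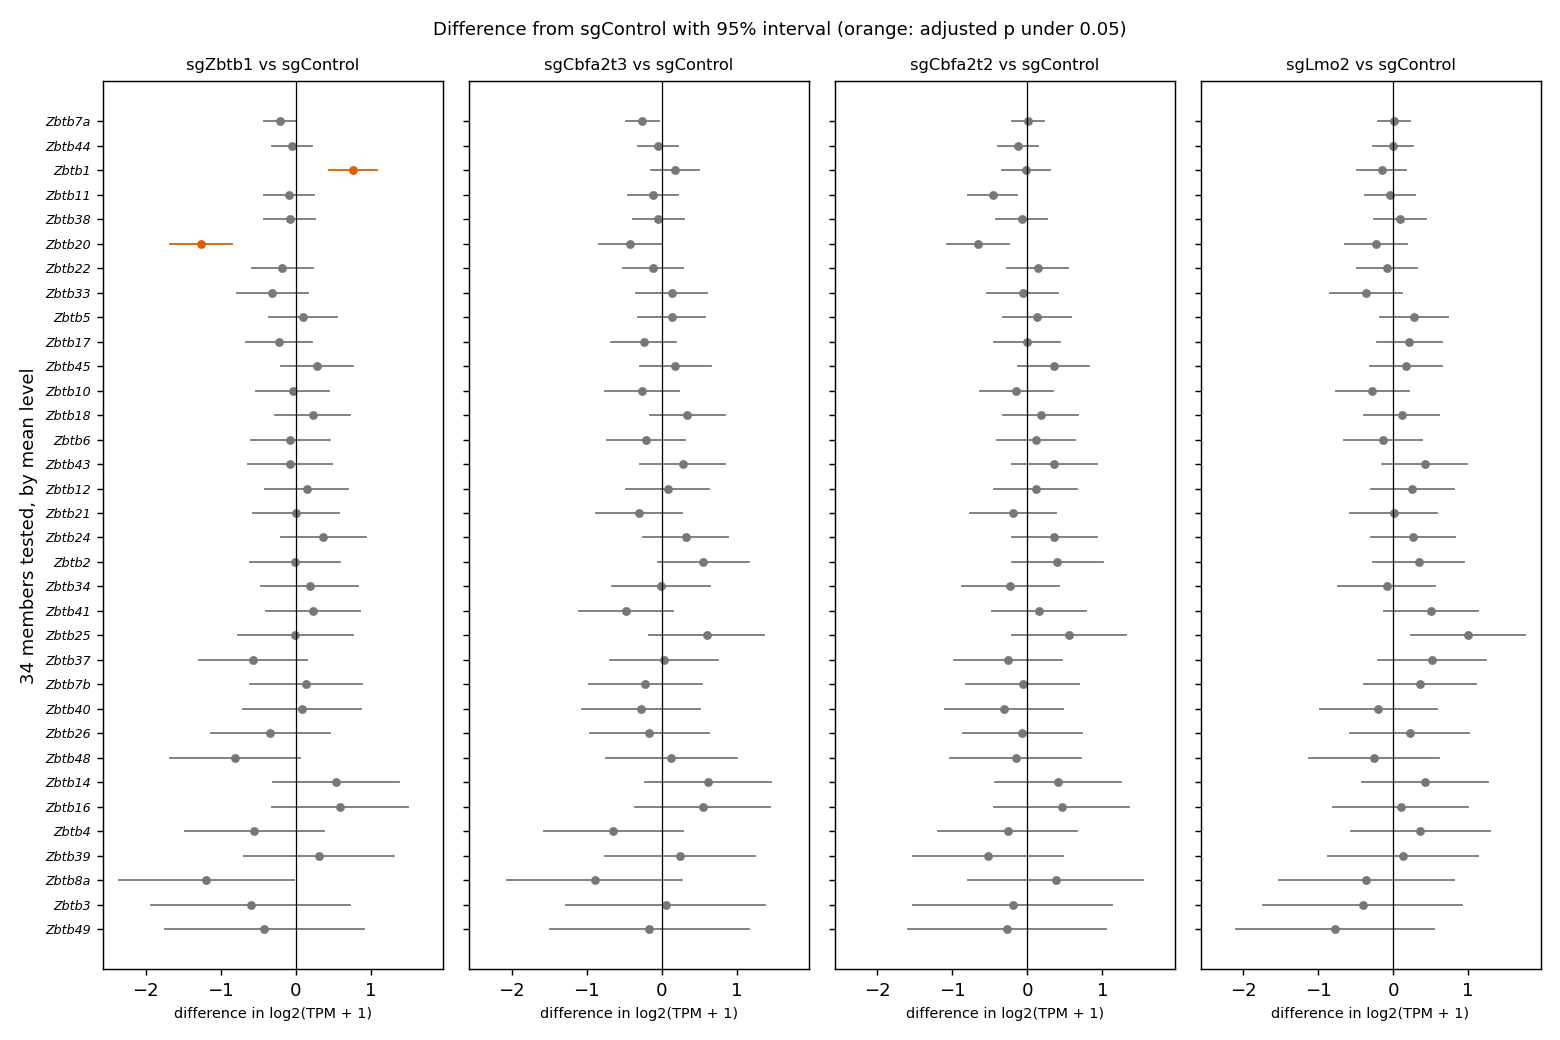
Difference in log2(TPM + 1) from sgControl (points) with its 95% interval (lines) for the 34 members tested, ordered by mean level, in 4 panels, one for each gene-targeting sgRNA condition. *Zbtb1* and *Zbtb20* in sgZbtb1 are the values drawn in orange, for an adjusted p under 0.05.

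The libraries labelled sgZbtb1 were next compared with each other gene-targeting condition, to see whether the 2 members stood apart from those as well. These comparisons share the sgZbtb1 libraries with each other and with the one against sgControl. Against sgLmo2, *Zbtb1* was higher (log2 fold change 0.92, limma adjusted p = 4.5e-05) and *Zbtb20* lower (-1.05, limma adjusted p = 0.000361), where 5.06% of genes passed. The summed LP (1355 to 1439 TPM in sgLmo2), T lineage (74.1 to 95.9 TPM) and B lineage markers were all lower in sgZbtb1 without overlap. Against sgCbfa2t2, *Zbtb1* was higher (0.79, limma adjusted p = 0.00112), where 2.27% of genes passed, while *Zbtb20* differed by -0.60 (95% interval -1.02 to -0.19, limma adjusted p = 0.12). Against sgCbfa2t3, *Zbtb1* (0.59, limma adjusted p = 0.0472) and *Zbtb20* (-0.85, limma adjusted p = 0.0162) passed, where 1.13% of genes did. This last pair of calls was fragile. The adjusted p of *Zbtb1* rose to between 0.0578 and 0.229 when any 1 of the 6 libraries was left out. The call of *Zbtb20* was lost (adjusted p 0.0669 to 0.0972) without sgZbtb1 replicate 1, sgZbtb1 replicate 3, sgCbfa2t3 replicate 1 or sgCbfa2t3 replicate 3. The libraries of 5, 5 and 9 members did not overlap in the comparisons with sgCbfa2t3, sgCbfa2t2 and sgLmo2, against 14.6%, 17.9% and 21.8% of all genes. The summed T lineage markers were also lower in sgZbtb1, without overlap, than in sgCbfa2t2 (71.6 to 80.7 TPM) and sgCbfa2t3, and the summed erythroid markers lower than in sgCbfa2t3. The part of these marker differences in the results was not tested.

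The DEG rule was extended to these 3 comparisons after the data were seen. It was met by 3 members in sgZbtb1 against sgLmo2, *Zbtb20*, *Zbtb25* and *Zbtb37*, where 1.56% of genes met it, and by none against sgCbfa2t3 or sgCbfa2t2, where 0.71% and 0.952% of genes did. *Zbtb37* (chr1:161002922-161034849, minus strand) was at 8.38, 9.08 and 5.40 TPM in sgZbtb1 and at 15.3, 19.1 and 17.0 TPM in sgLmo2, with no overlap (log2 fold change -1.09, limma adjusted p = 0.062). In sgControl it was at 10.5, 8.10 and 18.2 TPM, so that sgControl overlapped both conditions. It overlaps *Gas5* on the other strand, so its reads are uncertain without the counting strand. The count of 3 fell to 1 without sgLmo2 replicate 2, sgLmo2 replicate 3 or sgZbtb1 replicate 1 (*Zbtb37* alone) and without sgZbtb1 replicate 3 (*Zbtb20* alone).

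*Zbtb25* lies next to *Zbtb1* on the opposite strand (chr12:76347782-76369602), and the 2 start sites are 664 bp apart. It was at 7.55, 19.7 and 3.52 TPM in sgControl and at 7.26, 12.9 and 5.89 TPM in sgZbtb1. The sgControl libraries were so far apart that they spanned all of sgZbtb1. The log2 fold change was -0.00 (95% interval -0.77 to 0.76, limma adjusted p = 0.996), against 0.77 for *Zbtb1* in the same libraries. *Zbtb25* was at 11.9, 21.0 and 21.4 TPM in sgLmo2, 1.77-fold sgControl (limma adjusted p = 0.838). The log2 fold change of 0.996 was 0.48 without sgControl replicate 3 and 1.57 without sgControl replicate 2. In sgZbtb1 it was at 0.480 of sgLmo2 (limma adjusted p = 0.127), just past the limit of the DEG rule.

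Of the members with a known part in blood cells, 11 with *Zbtb1* and *Zbtb20*, 9 were tested, and no other passed the adjusted threshold in any of the 7 comparisons. *Zbtb7a* was at 170, 211 and 210 TPM in sgControl, at 168, 173 and 168 TPM in sgZbtb1 and at 150, 160 and 184 TPM in sgCbfa2t3. Both conditions overlapped sgControl, with log2 fold changes of -0.21 (95% interval -0.43 to 0.01) and -0.26 (-0.48 to -0.04, limma adjusted p = 0.377). *Zbtb11*, needed for neutrophil development, was at 49.5, 46.8 and 46.9 TPM in sgCbfa2t2 and at 53.4, 75.2 and 72.1 TPM in sgControl. These did not overlap, but the log2 fold change of -0.46 missed that threshold (limma adjusted p = 0.317). *Zbtb11* lies over *Gm28037* on the same strand and over *Pcnp* and *Zbtb11os1* on the other, so its reads are also uncertain.

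*Zbtb17* (Miz1), a partner of Myc that is required in early lymphoid progenitors, was at 25.0, 35.9 and 36.9 TPM in sgControl and at 27.9, 31.6 and 23.1 TPM in sgZbtb1. The groups overlapped (log2 fold change -0.23, 95% interval -0.66 to 0.21). *Zbtb24*, mutated in an inherited immunodeficiency with centromere instability, was at 15.7, 19.7 and 11.1 TPM in sgControl and at 22.3, 21.5 and 16.2 TPM in sgZbtb1 (log2 fold change 0.37, 95% interval -0.19 to 0.93). The T cell factors were low. *Zbtb7b* was at 11.03, 9.84 and 8.21 TPM in sgControl and at 15.1, 12.4 and 6.38 TPM in sgZbtb1. *Zbtb16* was at 11.6, 3.47 and 2.35 TPM in sgControl and at 11.2, 5.74 and 6.87 TPM in sgZbtb1, with overlap in both genes.

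Other members were grouped by roles outside blood cells. The methyl-CpG binding *Zbtb33* (Kaiso), *Zbtb38* and *Zbtb4* had means of 5.17 to 51.9 TPM, and their log2 fold changes in sgZbtb1 against sgControl were -0.55 to -0.08. *Zbtb10*, *Zbtb40* and *Zbtb48*, linked to telomere or genome maintenance, had means of 8.25 to 25.4 TPM and log2 fold changes of -0.81 to 0.08. *Zbtb48* (TZAP), a telomere-binding factor, was the lowest of the 3 in sgZbtb1, at 5.12 ± 2.81 against 9.31 ± 3.50 TPM in sgControl (SD, n = 3 each). *Zbtb2* and *Zbtb5*, which act on the p53 axis, differed by -0.01 to 0.10, and the neural repressors *Zbtb18* and *Zbtb45* by 0.23 to 0.28. A further 17 members, among them *Zbtb44*, *Zbtb22*, *Zbtb43*, *Zbtb34*, *Zbtb41*, *Zbtb14* and *Zbtb37*, were in no role group. Of these 15 were tested, with log2 fold changes in sgZbtb1 from -1.20 (*Zbtb8a*) to 0.54 (*Zbtb14*). *Zbtb14* was at 7.96 ± 2.70 TPM in sgZbtb1 and 5.04 ± 1.18 TPM in sgControl (SD, n = 3 each). No member of these groups outside blood cells, or of the 17 in no role group, passed the adjusted threshold in any of the 7 comparisons. *Zbtb6* and *Zbtb26* overlap on the same strand with starts 36 bp apart, so reads could not be assigned to either with certainty. The same limit holds for other members that overlap annotated genes. Among them are *Zbtb22* (*Tapbp*) and *Zbtb21* (*C2cd2*) on the same strand, and *Zbtb17* (*Spen*) and *Zbtb12* (*C2*) on the other.

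A list of 8 BTB-zinc finger genes under other symbols (*Bcl6*, *Bcl6b*, *Hic1*, *Hic2*, *Patz1*, *Mynn*, *Gzf1* and *Zfp131*, of which 6 were tested) was examined beside the family. No gene of this list passed the adjusted threshold of limma in any of the 7 comparisons. In sgZbtb1 against sgControl, 2 of its genes (*Patz1* and *Bcl6*) had an unadjusted p under 0.05, against 17.6% of all genes. They differed in opposite directions, *Patz1* by -0.41 and *Bcl6* by 1.38, and *Bcl6* was at 0.386 TPM in sgControl, below the worth of 3 reads. The median log2 fold change of the list was -0.26, against -0.03 over all genes tested. In sgCbfa2t2, *Mynn* was at 5.45 ± 0.236 TPM against 15.1 ± 2.05 TPM in sgControl (SD, n = 3 each), without overlap. Its log2 fold change of -1.31 met the DEG rule (limma adjusted p = 0.130). In that condition 0.502% of all genes met the rule and 13.7% did not overlap sgControl. *Mynn* also lay below sgControl without overlap in sgZbtb1 (mean 9.56 TPM) and sgCbfa2t3 (11.3 TPM). In sgLmo2 (12.7 TPM) it overlapped sgControl.

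To see whether the family's own loci were occupied, the peak lists were then examined. Each list holds the peaks found reproducibly in both replicates with a score of at least 15, so the lists give no error per peak and no test was made. The 13 Zbtb1 peaks were assigned by the list to 11 of the 40 members (27.5%), against 17.6% of all protein-coding genes of the table. With peaks scoring at least 30 there were 6 such members (15%), against 9.09% of protein-coding genes. Among the members with a mean above 1 TPM, 10 of 34 (29.4%) had a Zbtb1 peak, against 27.3% of all 11554 genes, a share near this background. The 3 Cbfa2t3 peaks were near 3 members. These were 7.5% of the 40, against 14.2% of protein-coding genes, and 8.8% of the 34, against 20.9% of genes. Within 10 kb of the start, 1 member (2.5%) was left, against 8.01% of protein-coding genes. Of the 13 Zbtb1 peaks, 7 were within 1 kb of the start site, where 45.1% of the whole list was, and the median score was 31.7 against 28.0 in the list.

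**Figure D4:**
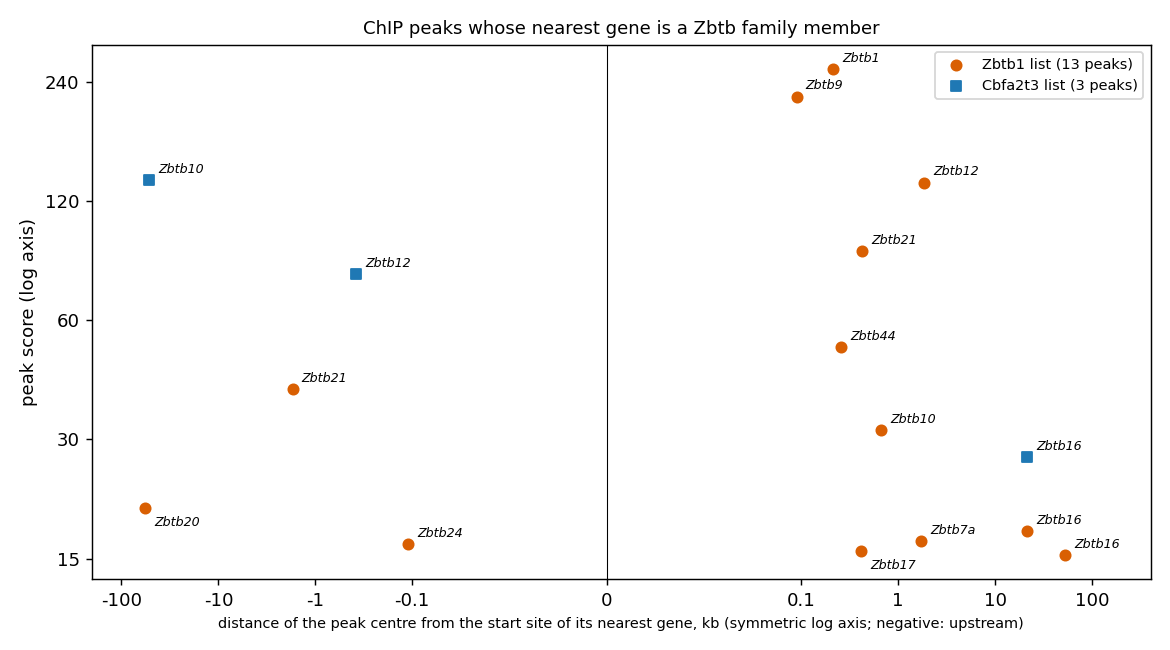
Score (log axis) of the 16 peaks assigned by the lists to a Zbtb member, against the distance of the peak centre from that gene's start site in kb (symmetric log axis, negative upstream). The Zbtb1 peaks at *Zbtb1* (258.6) and *Zbtb9* (220.1) score highest, and the *Zbtb16* intron holds a peak of each list at about 21 kb.

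The highest-scoring member peak of the Zbtb1 list was at *Zbtb1* itself (chr12:76370296-76370666), with a score of 258.6 and rank 96 of 5898. Its centre was 215 bp downstream of the start site used by the list, in the first exon, and 39 bp upstream of the RefSeq start. It was 879 bp from the start of *Zbtb25*. The 30 bases at its centre, the first of the printed sequences, were 76.7% G or C. The next peak (chr17:26973083-26973453, score 220.1) was at the start of *Zbtb9*, which had reads in 1 of the 15 libraries. *Ggnbp1* starts at the same place.

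*Zbtb12* had a Zbtb1 peak with a score of 133.6 in an exon, 1843 bp past its start, but a start of *C2* was closer, at 845 bp. *Zbtb21* had a peak in an intron 422 bp past the start (89.8), with a start of *C2cd2* 398 bp away, and another 1717 bp upstream (40.2). The upstream *Zbtb21* sequence holds TGTGGT at 2 places, each within a copy of the same 20 bases. *Zbtb44* (51.4) and *Zbtb10* (31.7) had a peak within 1 kb of the start. The peaks near *Zbtb20* (20.1), *Zbtb16* (17.6 and 15.3), *Zbtb7a* (16.6), *Zbtb24* (16.3) and *Zbtb17* (15.7) scored lower, near the minimum of 15. Of the members that differed in sgZbtb1, *Zbtb1* thus had the strongest member peak and *Zbtb20* a weak one, 56709 bp upstream of the start site to which the list refers and within an intron of the gene. That intron peak holds TGTGGT at 2 places and CAGATG at 1.

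Over the 10 tested members with a Zbtb1 peak, 5 were higher and 5 lower in sgZbtb1 than in sgControl, with a median log2 fold change of -0.02. Over the 24 without one, 9 were higher and 15 lower, with a median of -0.07. These counts describe direction alone, since *Zbtb1* and *Zbtb20* passed the test and the others did not.

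In the Cbfa2t3 list the strongest member peak lay 51727 bp upstream of *Zbtb10* (chr3:9198651-9199029, score 135.7), in intergenic sequence. It holds TGTGGT and CAGCTG at 2 places each, CAGATG at 1, and the reverse complement of TGGTGGTGG, CCACCACCA, which overlaps the second CAGCTG. The others lay 382 bp upstream of *Zbtb12* (78.4) and in the *Zbtb16* intron (27.1). Only the last overlapped a Zbtb1 peak, by 260 bp and with centres 115 bp apart, so 1 of the 13 Zbtb1 peaks was shared, against 25.2% of the whole Zbtb1 list. The 260 shared bases, printed as the fourth sequence, hold TGTGGT at 2 places and GATAAG at 1, all on the minus strand. *Zbtb16*, at a mean of 6.78 TPM, was among the less abundant members tested.

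In windows of 200 bp at the peak centre, TGTGGT was found in 6 of the 13 Zbtb1 member peaks (46.2%) and in 41.3% of all Zbtb1 peaks. The triplet repeat TGGTGGTGG was in none of the 13, against 9.56% of the list, and CAGCTG in none, against 15.4%. CAGATG was in 2 (11.1% of the list) and GATAAG in 1 (3.17%). In the 3 Cbfa2t3 member peaks, TGTGGT was in 2 (43.7% of that list), CAGCTG in 2 (47.4%), CAGATG in 1 (30.5%), GATAAG in 1 (4.12%) and TGGTGGTGG in 1 (1.29%). A promoter in the RefSeq table of GRCm38.p6 was found for 35 members. The median share of G and C in the 250 bases before the start was 64.6% in the members' promoters and 52.4% in all promoters of the table. TGTGGT was in 9 of the 48 member promoters (18.8%), where some members have several starts, and in 14.0% of all promoters.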

How the data were processed

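QuantSeq 3′ mRNA sequencing was performed on 15 libraries and ChIP-seq on 2 replicates per antibody, with groups and replicate numbers from the labels. The authors trimmed reads with fastp, mapped them to mm10 with STAR and scaled every library to one total. The authors deposited these values as TPM, but they are CPM without division by gene length, as 100% of them gave whole reads in each library (tolerance 0.05 reads). 1 line without an identifier, at most 5.86e-05% of the reads, was left out. ChIP-seq reads were mapped by the authors with Bowtie 1.1.1 and peaks called with HOMER over input. The deposited list of each factor holds reproducible peaks with a normalized score of 15 or more. The lists give no depth.

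Genes with a mean above 1 TPM (11554) were tested with limma 3.58.1 (R 4.3.3, eBayes with a trend) on log2(TPM + 1), a scale that understates the change of low genes, with the 15 libraries in one fit and Benjamini-Hochberg adjustment over all genes. The alternatives were a pseudocount of 0.1, other filters, the 6 libraries alone, median-of-ratios size factors, a replicate block, DESeq2 1.42.0 and edgeR 4.0.16 (quasi-likelihood) on recovered reads, the 9 other gene-targeting libraries, the study's rule on unlogged TPM, and leaving out each library. The limma and edgeR tests were run on simulated reads, with changes larger than those of *Zbtb1* and *Zbtb20* in genes above 10 TPM. The motif search was run on planted copies of TGGTGGTGG. Smaller changes, lower genes, DESeq2 and the assignment and overlap of peaks were not simulated. Peaks were assigned to the nearest gene given in the lists and motifs counted on both strands with pysam 0.24.0 in Python 3.11.15, on GRCm38 with GENCODE annotation. The members, roles, gene lists and tests were chosen with earlier results of these data known. Values by library are given in all 5 conditions for *Zbtb1* and *Zbtb20*, the members called. For the other members meeting the DEG rule, and the expressed members with a known part in blood cells, they are given in some conditions only. The remaining members are given by role group, or in counts where no role was assigned. Protein sequences and the sgRNA sequences were not used here. A list of cofactors is not reported here.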

Additional observations from a re-analysis of the deposited data

How the results depend on the processing

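In sgZbtb1 against sgControl, *Zbtb1* and *Zbtb20* passed the adjusted threshold under all 15 alternatives for which each was fitted, including each library left out. Their log2 fold changes ranged from 0.70 to 0.84 and from -1.37 to -0.83. Against sgCbfa2t3 the count of 2 fell to 1 with a pseudocount of 0.1 (*Zbtb20*), to 0 with all genes above 0, and to between 0 and 1 with a library left out. In sgLmo2, 1 member (*Zbtb1*) passed against the 9 other gene-targeting libraries, and 1 (*Zbtb25*) met the DEG rule with a pseudocount of 0.1. With a library left out, members that met the DEG rule against sgControl numbered 1 to 2 in sgZbtb1 and 0 to 1 in each of sgCbfa2t3, sgCbfa2t2 and sgLmo2. For sgZbtb1 they numbered 0 to 1 against sgCbfa2t3 (*Zbtb48*), 0 to 1 against sgCbfa2t2 (*Zbtb1*) and 1 to 3 against sgLmo2. A pseudocount of 0.1 also gave 1 against sgCbfa2t3 (*Zbtb48*). The log2 fold change of *Zbtb20* in sgCbfa2t3 was 0.30 against the 9 other libraries, which include sgZbtb1, in place of -0.42, and in sgCbfa2t2 it was -0.03 in place of -0.66. The causes were not tested.

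Members near a Zbtb1 peak numbered 6 with a score of at least 30. Those near a Cbfa2t3 peak numbered 1 within 10 kb of the start. The shared peak was lost (0) with centres within 100 bp or a score of at least 30, and TGTGGT was in 0 Cbfa2t3 member peaks in windows of 100 bp.

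The replicate numbers were not taken as pairs. The mean r of the deviations of libraries with the same number was 0.0279 (-0.0072 to 0.0656), with 0 of 30 pairs above 0.1, against -0.0139 for other numbers. The correlations were weak, but 14 of the 15 libraries correlated best with their own number. The replicate block left 2 members called in sgZbtb1 against sgControl, 2 against sgCbfa2t3, 1 against sgCbfa2t2 and 2 against sgLmo2, and 0 in the other conditions. The block changed no count. Low reads limit *Zbtb8a*, *Zbtb3*, *Zbtb39* and *Zbtb49*.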
